A study of Rattus norvegicus with 4 samples.

Results

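Neurotransmitter receptor genes encode the membrane proteins with which cells sense GABA, glutamate, glycine, acetylcholine, serotonin and ATP. They were taken by their gene symbols, which had to start with Gabr, Gria, Grin, Grik, Grm, Glra, Chrn, Chrm, Htr or P2rx on a probe set that names 1 gene. This gave 81 of the 4736 genes in the table, read by 125 of 7006 probe sets. Of the 81 genes, 51 had 1 probe set and 30 had 2 or more. Grina was taken in by its prefix, but it encodes a membrane protein named for an association with NMDA receptors and is not a receptor subunit.

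Rats went onto a vitamin A-deficient diet at 20 days of age, and retinol was given after 9 weeks. The 4 samples, called arrays here, were whole testis 0 h (VAD, deficient and untreated), 4 h, 8 h and 24 h after retinol, 1 array for each time. All 4 groups were raised deficient, and no vitamin A-sufficient testis was among them. Neither the strain nor the number of animals behind an array is given in the labels used here. With 1 array per group no difference could be tested between animals, so every value below describes these 4 arrays.

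These receptors work in one of 2 ways. GABA type A, glycine, nicotinic, AMPA, NMDA, kainate, P2X and serotonin type 3 receptors are ion channels that the transmitter opens. Metabotropic glutamate receptors, muscarinic receptors and the other serotonin receptors signal through G proteins. Most are known from brain, nerve ganglia or muscle, although GABA, glycine and nicotinic receptors have also been described on mammalian sperm and some are found in steroid-producing cells. In testis they can therefore serve as a gauge of how far the readings of genes known mainly from other tissues move between arrays.

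The deposited values were linear ratios per probe set, with no signal level and no detection call, so the array cannot tell here whether a receptor transcript was present. A change is the log2 difference between the ratios of 2 arrays, and a gene's value is the mean over its probe sets. The 4 h, 8 h and 24 h arrays each share the VAD array as their comparison. Over all 4736 genes the median was -0.09, -0.12 and -0.12 at 4, 8 and 24 h. Scaling on the 9 bacterial hybridisation spike-in probe sets, by their median on each array, would add 0.55, 0.50 and 0.62 to every change at these times. The median of their 9 changes was -0.55, -0.58 and -0.71, so the size of this shift depends on how it is taken. Signs of smaller changes hold only for the ratios as deposited. In bulk tissue, fewer cells of a type and less RNA per cell cannot be told apart. The 5' control probe sets of actin, GAPDH and hexokinase exceeded their 3' partners in change by 0.71, 1.09 and 1.01 on average. The part of that gap in receptor values was not tested.

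Most receptor genes stayed close to their VAD reading. The members' median change was -0.07, -0.04 and 0.02 at 4, 8 and 24 h. At all 3 times 51 of the 81 stayed within 0.5 of VAD, or 63.0%, beside 58.2% of all genes. At 4 h 2 receptor genes were past 2-fold, 1 higher and 1 lower (2.47% of the members), where 1.41% of all genes were higher and 1.25% lower (2.66% together). At 8 h none was 2-fold higher and 2 were 2-fold lower, or 2.47% of the members, beside 2.83% and 1.88% of all genes (4.71% together). At 24 h 1 was 2-fold higher and 4 were 2-fold lower, or 6.17% of the members together, beside 3.27% higher and 2.64% lower (5.91% together) among all genes. Over the 3 times, 7 members (8.64%) passed 2-fold at least once, beside 403 of all genes (8.51%). At each of the 3 times the members' share differed from that of all genes by less than 2 of the 81 genes would add to it.

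**Figure D1:**
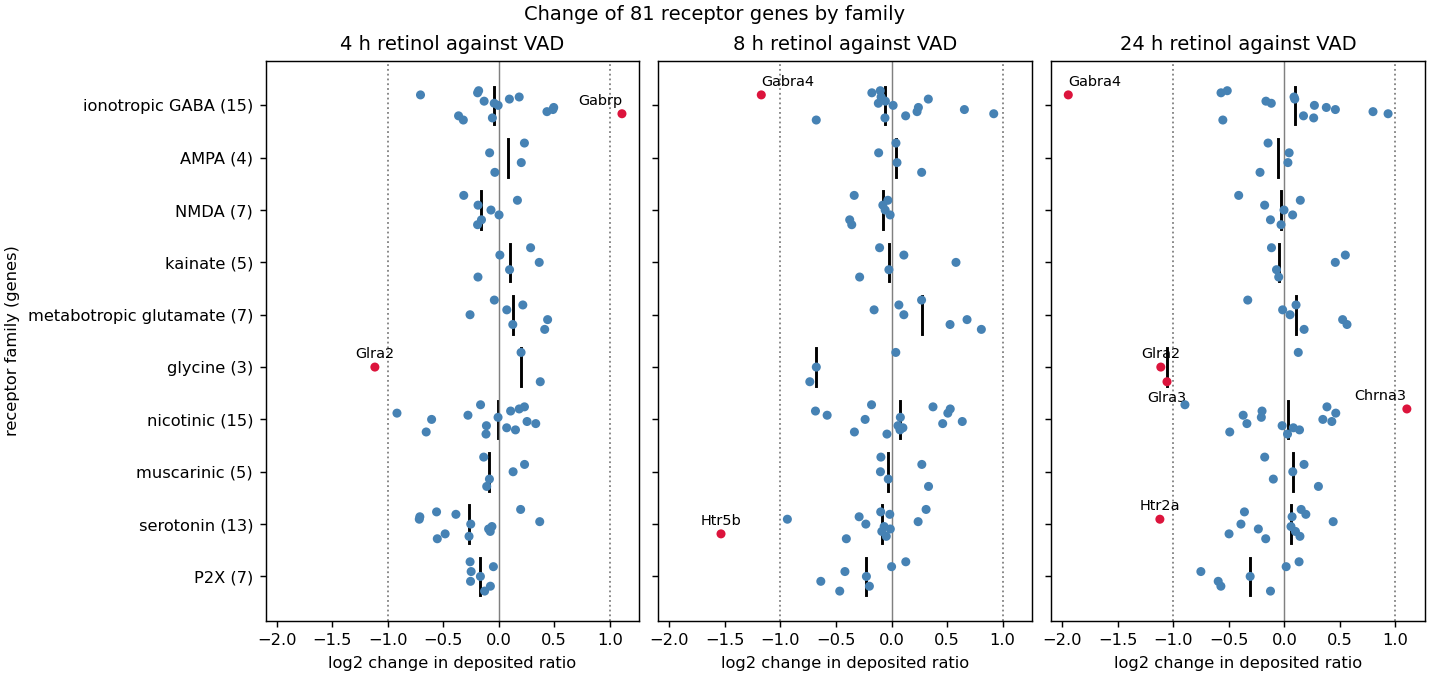
Log2 change of each of the 81 receptor genes against the VAD array (points, x axis) at 4 h, 8 h and 24 h after retinol, by receptor family (y axis, number of genes in brackets). Black bars are family medians, dotted lines mark 2-fold, and red, named points lie past it: 2 genes at 4 h, 2 at 8 h and 5 at 24 h.

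GABA type A receptors are chloride channels of 5 subunits, and 15 of their subunit genes were measured. Their medians were -0.04, -0.06 and 0.09 at 4, 8 and 24 h. Gabrp encodes the pi subunit, which is known from uterus and other epithelia rather than brain. Its only probe set read 1.06 on the VAD array and 2.28, 2.001 and 2.02 on the 4, 8 and 24 h arrays. All 3 retinol arrays were thus above VAD, by 1.11 (2.16-fold) at 4 h, 0.92 at 8 h and 0.93 at 24 h.

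Gabra4 encodes the alpha 4 subunit, known from receptors outside synapses in thalamus and hippocampus. Its mean was at -0.70, -1.17 and -1.95, the lowest among the members at 24 h, but its 2 probe sets disagreed. The probe set of which the name carries the letter i, Affymetrix's mark for a set with fewer probes than usual, read 0.58 on the VAD array and 0.22, 0.098 and 0.038 on the 4, 8 and 24 h arrays. By ratio among all 8799 probe sets this was rank 12 from the lowest at 4 h, rank 3 at 8 h and rank 1 at 24 h. The other probe set read 0.85, 0.83, 0.98 and 0.88 on the same arrays, which is 0.06 above VAD at 24 h. Without the lower probe set Gabra4 was at -0.03, 0.21 and 0.06, and the count of members at least 2-fold lower was 1 at 8 h and 3 at 24 h.

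Other GABA receptor genes moved less. Gabrg3 and Gabrg1, both gamma subunit genes, were at 0.80 and 0.46 at 24 h, and Gabrr3, Gabra3 and Gabra2 at -0.55, -0.57 and -0.51. Gabra5, singled out after its values were seen, had a mean of 0.18 at 4 h from probe sets at 1.13 and -0.76. One reading was thus past 2-fold higher while its partner pointed down.

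Glycine receptors are the chloride channels of inhibition in spinal cord and brainstem, and the prefix takes in their alpha subunit genes, of which 3 were measured. Glra2, the alpha subunit of immature neurons, read 1.27 on the VAD array and 0.58, 0.79 and 0.59 on the 4, 8 and 24 h arrays. It was lower than VAD on all 3 retinol arrays, by 2.17-fold at 4 h (-1.12) and 2.16-fold at 24 h (-1.11). Glra3 read 1.32 on the VAD array and 1.71 at 4 h, then 0.79 and 0.63 at 8 and 24 h, so it was above VAD at 4 h (0.37) and 2.08-fold below it at 24 h (-1.06). Both VAD readings lay more than 10% above 1, and both genes have 1 probe set. Measured from a ratio of 1 instead of from the VAD array, Glra2 was at -0.78, -0.34 and -0.77 and Glra3 at 0.77, -0.34 and -0.66. Glra1 had probe sets at -0.50, 0.19 and 0.69 at 24 h.

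Nicotinic receptors are cation channels opened by acetylcholine, and the subunits of muscle, ganglia and brain gave 15 genes. Their medians were -0.01, 0.08 and 0.03. Chrna3 encodes the alpha 3 subunit of autonomic ganglia. Its probe set read 1.07 on the VAD array and 1.21, 1.54 and 2.30 on the 4, 8 and 24 h arrays, and 24 h was 2.15-fold above VAD (1.10). Chrna5 encodes an accessory subunit that joins alpha 3 receptors. It read 0.89 on the VAD array and 0.47, 1.26 and 1.22 on the 4, 8 and 24 h arrays, so the 4 h array stood alone below the others. The 8 h array was 2.68-fold above the 4 h array (1.42). Chrnb4, the beta 4 partner of alpha 3, was at 0.07, 0.10 and 0.08 against VAD. Chrna1 of the muscle receptor was at -0.90 at 24 h, whereas Chrnb1, Chrnd and Chrne of the same muscle receptor were at 0.43, 0.14 and -0.49.

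Chrna5, Chrna3 and Chrnb4 lie next to each other on rat chromosome 8 with no other protein-coding gene between them (RefSeq, assembly GRCr8). The 250 bases before each start are shown because these 3 neighbours gave 3 different courses on the arrays. Capitals mark GGGCGG or its reverse complement CCGCCC, the GC box bound by Sp1-type factors. The sequences are RefSeq's (GRCr8), each on its gene's strand, at chr8:64265629-64265878 (Chrna5, plus strand), chr8:64311252-64311501 (Chrna3, minus strand) and chr8:64333110-64333359 (Chrnb4, minus strand).
Chrna5: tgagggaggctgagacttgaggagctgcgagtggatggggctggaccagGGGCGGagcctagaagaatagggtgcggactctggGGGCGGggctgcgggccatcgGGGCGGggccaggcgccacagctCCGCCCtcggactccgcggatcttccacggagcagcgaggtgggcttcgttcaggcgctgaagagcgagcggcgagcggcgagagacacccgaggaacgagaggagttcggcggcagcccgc
Chrna3: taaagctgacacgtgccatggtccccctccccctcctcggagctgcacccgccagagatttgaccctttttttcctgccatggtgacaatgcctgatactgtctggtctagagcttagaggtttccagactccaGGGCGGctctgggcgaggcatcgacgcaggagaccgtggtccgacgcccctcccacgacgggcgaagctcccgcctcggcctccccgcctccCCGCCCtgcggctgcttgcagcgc
Chrnb4: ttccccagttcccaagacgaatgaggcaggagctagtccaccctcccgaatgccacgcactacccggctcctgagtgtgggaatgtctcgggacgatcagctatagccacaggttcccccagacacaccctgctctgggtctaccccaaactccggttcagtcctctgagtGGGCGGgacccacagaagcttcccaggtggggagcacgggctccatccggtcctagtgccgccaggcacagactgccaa
These windows held 4, 2 and 1 GC boxes. A GC box was found before 24 of 59 members with a listed promoter (40.7%) and before 8892 of 27457 promoters (32.4%). The half-site AGGTCA (reverse TGACCT), to which retinoic acid receptors bind in repeats, was in none of the 3 windows. It was found before 4 of the 59 members (6.78%), which were Chrna1, Chrnb2, Grin2c and Grm8, and before 13.7% of promoters. A match or its lack describes these letters only.

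Ionotropic glutamate receptor genes showed no 2-fold change. The 4 AMPA receptor genes, which carry fast excitation in brain, had medians of 0.08, 0.04 and -0.06. The member with the largest change was Gria4, at -0.03, 0.27 and -0.22. The even mean of Gria2 (-0.08, -0.12 and 0.04), singled out after its values were seen, came from probe sets that parted. One read 0.56 on the VAD array and 0.63, 0.27 and 0.30 on the 4, 8 and 24 h arrays. The other read 1.07, 0.86, 1.87 and 2.13. At 24 h they stood at -0.911 and 0.997 against VAD.

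The 7 NMDA-prefix genes had medians of -0.15, -0.08 and -0.03. Grin1, the subunit that every NMDA receptor contains, was at -0.31, -0.34 and -0.41 as the mean of 4 probe sets, and at 24 h these lay between -0.70 and -0.29. All 4 were below VAD at 24 h, and 3 of 4 at 4 h and at 8 h. With spike-in scaling the sign of Grin1 turned, to 0.23, 0.17 and 0.21. Grina was at -0.19, -0.36 and -0.03.

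The 5 kainate receptor genes had medians of 0.10, -0.02 and -0.05, with Grik3 at 0.37, 0.58 and 0.46. Grik2 read 2.15 on the VAD array and 2.16, 2.32 and 3.14 on the 4, 8 and 24 h arrays. Its VAD ratio was the highest among the members and rank 8 from the highest of all 8799 probe sets. Its change against VAD was nevertheless small, at 0.01, 0.11 and 0.55.

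P2X receptors are cation channels opened by ATP, and all 7 measured genes were below VAD at 4 h, when 2894 of 4736 genes were. At 24 h 5 of 7 were below VAD, around a family median of -0.31. P2rx3, known from pain-sensing nerve fibres, was at -0.25, -0.42 and -0.75, and P2rx5 at -0.25, -0.64 and -0.60. P2rx2, with 6 probe sets, was at -0.05, 0.00 and 0.02, and these probe sets spanned -0.27 to 0.44 at 24 h. Under spike-in scaling no family median lay below 0 at 4 h and 1 of 10, that of the glycine receptors, at 8 h and at 24 h, against 6, 7 and 5 of 10 as deposited.

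Among receptors coupled to G proteins, Htr2a read lower after retinol in both of its probe sets. It encodes the serotonin 2A receptor, which signals through Gq to calcium in smooth muscle, platelets and cortex. Its first probe set read 1.004 on the VAD array and 0.70, 0.62 and 0.65 on the 4, 8 and 24 h arrays. The second, made from another database sequence, read 0.95, 0.51, 0.42 and 0.31. Both were below VAD on every retinol array, at -0.52, -0.70 and -0.63 for the first and -0.91, -1.17 and -1.61 for the second. The gene mean was -0.72, -0.94 and -1.12, or 2.17-fold lower at 24 h. Htr2a was the only member with 2 or more probe sets that all moved the same way by at least 0.5 at all 3 times. With spike-in scaling the gene mean stayed below VAD, at -0.17, -0.44 and -0.50. That scaling adds 0.55, 0.50 and 0.62 to each probe set. This exceeds the fall of the first probe set at 4 h and nearly equals it at 24 h. Under this scaling the 2 probe sets thus no longer share a direction at 4 h. If the median change of the spike-ins (-0.71 at 24 h) were taken off instead, they would also part at 24 h.

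**Figure D2:**
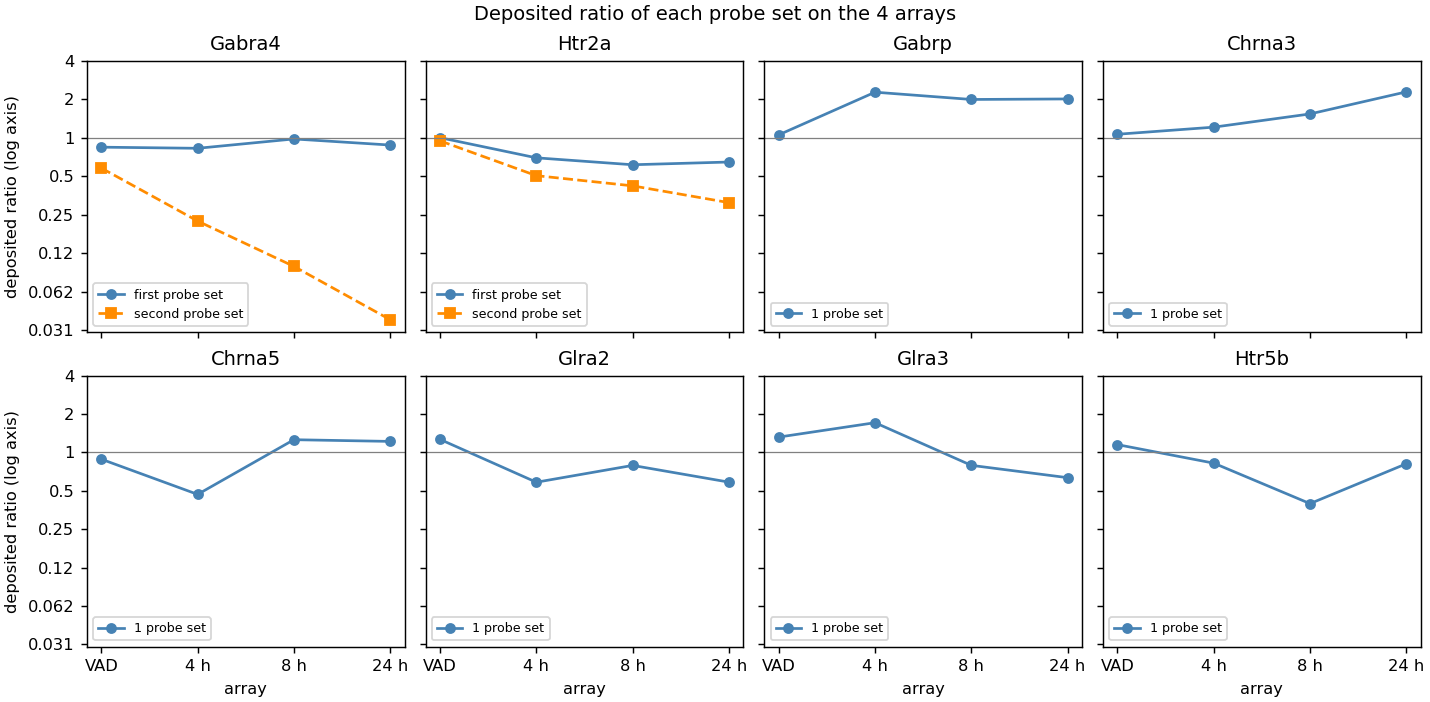
Deposited ratio (log axis, relative to a denominator that is not stated) of each probe set of 8 receptor genes on the VAD, 4 h, 8 h and 24 h arrays. The 2 Htr2a probe sets both lie below their VAD reading after retinol, whereas 1 Gabra4 probe set drops to 0.038 and the other stays between 0.83 and 0.98.

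Of the 13 serotonin receptor genes, Htr2a included, 11 were below VAD at 4 h and at 8 h and 6 at 24 h, with medians of -0.27, -0.09 and 0.06. The 6 that were below at 24 h were below at both other times too, and were Htr1b, Htr2a, Htr2c, Htr4, Htr5b and Htr7. Htr5b read 1.15 on the VAD array and 0.82, 0.40 and 0.82 on the 4, 8 and 24 h arrays. The 8 h array stood alone, 2.90-fold below VAD (-1.54), and the 24 h array was 2.05-fold above it (1.04). Htr2b, the other Gq-coupled subtype found in peripheral tissues, was at 0.37, 0.24 and 0.44. Htr2c was at -0.25, -0.23 and -0.39, with probe sets at -0.85 and 0.07 at 24 h. Htr3a, the single serotonin-gated channel gene here, was at -0.06, -0.07 and 0.06.

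Metabotropic glutamate receptor genes (7) had medians of 0.13, 0.27 and 0.11. Grm8, which dampens transmitter release at nerve endings, was at 0.41, 0.81 and 0.18. Its only probe set read 0.67 on the VAD array. Measured from a ratio of 1 instead, Grm8 was at -0.16, 0.23 and -0.40. Grm7, of the same subgroup and singled out after its values were seen, was at 0.13, 0.53 and 0.56. Its 3 probe sets stood at -0.19, 0.52 and 1.36 at 24 h. The 5 muscarinic receptor genes had medians of -0.08, -0.03 and 0.08 and all values between -0.18 and 0.33. Chrm5 had the largest of these, at -0.11, 0.33 and 0.31.

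Between successive retinol arrays, 1 member was at least 2-fold higher and 2 were 2-fold lower at 8 h than at 4 h, or 3.70%, beside 0.718% and 0.929% of all genes (1.65% together). These were Chrna5 (1.42), Glra3 (-1.11) and Htr5b (-1.05), and each is read by 1 probe set. From the 24 h array against the 8 h array, 1 member was 2-fold higher and 0 were 2-fold lower, beside 0.507% and 0.655% of all genes (1.16% together). That member was Htr5b again, returning toward its 4 h reading.

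The spread of receptor readings depended on which arrays were compared. Against VAD, the interquartile range of the 125 probe set changes was 0.428, 0.423 and 0.494 at 4, 8 and 24 h. Over all 7006 probe sets it was 0.504, 0.610 and 0.654, so the receptors had 0.850, 0.693 and 0.756 times the spread of the whole table. Voltage-gated channel genes, another group known mainly from excitable tissue, had 0.858, 0.876 and 0.835 times that spread over 127 probe sets. By standard deviation the receptors came closer to the table, at 0.886, 0.882 and 0.975 times. By interquartile range the order turned between retinol arrays. There the receptors had 1.20 times the spread of the table for 8 h against 4 h and 1.27 times for 24 h against 8 h. Voltage-gated channel genes were also above the table there, at 1.06 and 1.52 times. Genes with symbols starting with Rpl or Rps, called ribosomal here, had 0.514 and 0.521 times the spread. Most encode ribosomal proteins, which every cell uses at high levels, but Rps6kb1 and Rps2-ps1 among them do not. By standard deviation between retinol arrays, the receptors had 1.18 and 1.04 times the spread of the table and voltage-gated channel genes 0.967 and 1.29 times. Counted by gene, 95.1% and 88.9% of receptor genes lay within 0.5 there, beside 90.3% and 91.0% of all genes. For 8 h against 4 h the gene count thus did not show the turn. None of these ratios was tested.

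**Figure D3:**
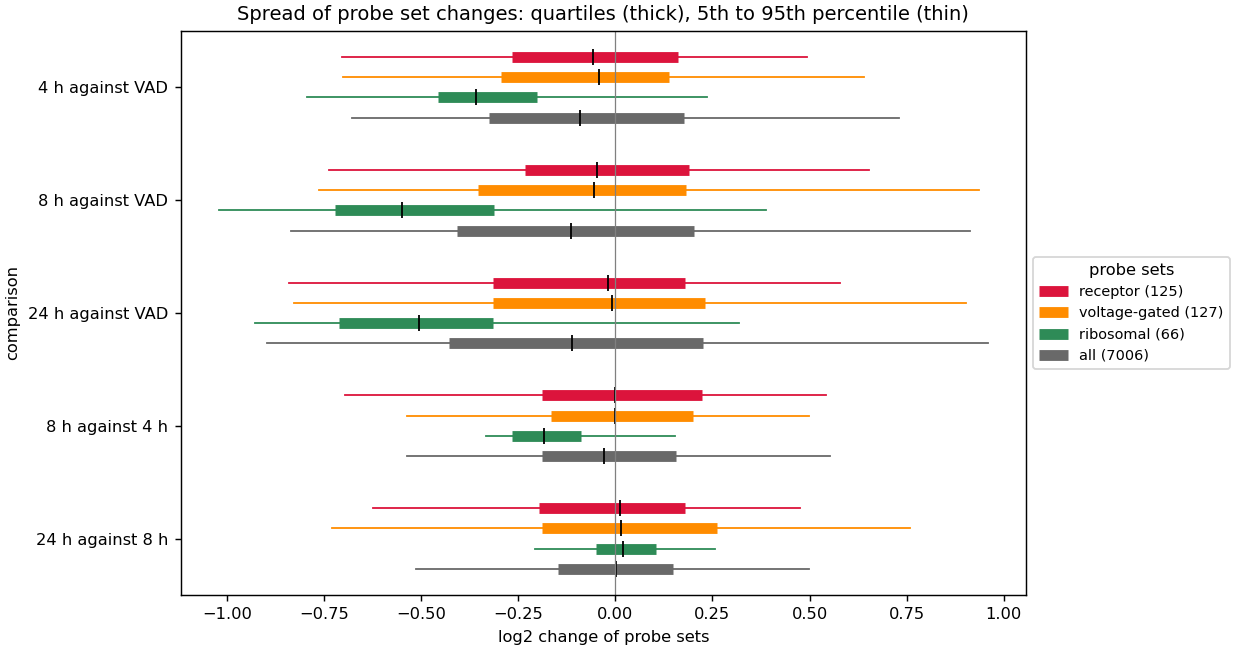
Log2 change of probe sets (x axis) in 5 comparisons (y axis) for receptor, voltage-gated channel, ribosomal protein and all probe sets (number in brackets); thick bars span the quartiles, thin lines the 5th to 95th percentile, and ticks are medians. Receptor bars are shorter than those of all probe sets against VAD and longer between successive retinol arrays.

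Probe sets of 1 receptor gene often differed in direction. The 30 genes with 2 or more probe sets gave 65 pairs, 15 of them from P2rx2, and pairs within a gene share probe sets. The 2 readings of a pair had the same sign in 28 pairs at 4 h (43.1%), 32 at 8 h (49.2%) and 27 at 24 h (41.5%). Over the 67 pairs of voltage-gated channel genes these shares were 52.2%, 56.7% and 41.8%. Over the 3281 pairs of all genes they were 55.0%, 55.4% and 56.0%, and over the 25 ribosomal pairs 88.0%, 92.0% and 92.0%. Both probe sets came from the same database sequence in 9 receptor pairs and in 784 pairs of all genes. In the 56 receptor pairs from different sequences the shares were 46.4%, 53.6% and 42.9%. Over the 2497 such pairs of all genes they were 51.9%, 52.4% and 52.9%, so the receptor share was not the lower one at 8 h. A shift common to many genes raises such a share, and the ribosomal genes had medians of -0.39, -0.61 and -0.56 against VAD. Between retinol arrays their medians were -0.18 and 0.02, for 8 h against 4 h and 24 h against 8 h. There the ribosomal share was 68.0% and 48.0%, beside 44.6% and 47.7% of receptor pairs and 57.9% and 58.8% of all pairs. With spike-in scaling 83.1% of receptor pairs had the same sign at each time against VAD. Differences within a pair do not depend on scaling. Against VAD, the median absolute difference in a receptor pair was 0.34, 0.32 and 0.33, against 0.37, 0.42 and 0.46 over all genes. Between retinol arrays the order of these medians turned. The difference in a receptor pair was 0.42 for 8 h against 4 h and 0.28 for 24 h against 8 h. Over all genes it was 0.23 and 0.18.

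Across the 65 receptor pairs, Pearson's r between the 2 readings was -0.11, -0.05 and 0.02 at 4 h, 8 h and 24 h. Across voltage-gated channel pairs it was -0.01, 0.13 and 0.04. Across all 3281 pairs it was 0.17, 0.20 and 0.19, and across ribosomal pairs 0.47, 0.61 and 0.54. In pairs from different sequences only, r was -0.13, -0.03 and 0.003 for receptors and 0.11, 0.12 and 0.11 over all genes. These are descriptions across pairs that share the same 4 arrays. At least 1 probe set passed 2-fold in 2, 5 and 4 receptor pairs at these times, and in 0 of them did both pass in the same direction. Over all genes both did so in 11 of 268, 32 of 462 and 38 of 589 such pairs. The standard deviation of the difference in a receptor pair, divided by the square root of 2, estimates how far 1 probe set strays from its partner, and it was 0.39, 0.45 and 0.52. The standard deviation of all 125 receptor changes was close to this, at 0.40, 0.48 and 0.57. The whole table showed the same closeness. Over the pairs of all genes the estimate for 1 probe set was 0.42, 0.50 and 0.55. The standard deviation of all 7006 changes was 0.45, 0.54 and 0.58. Between retinol arrays the estimate for 1 receptor probe set was 0.454 for 8 h against 4 h and 0.295 for 24 h against 8 h. Over all genes it was 0.309 and 0.302, so by this measure receptor pairs did not differ more for 24 h against 8 h.

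**Figure D4:**
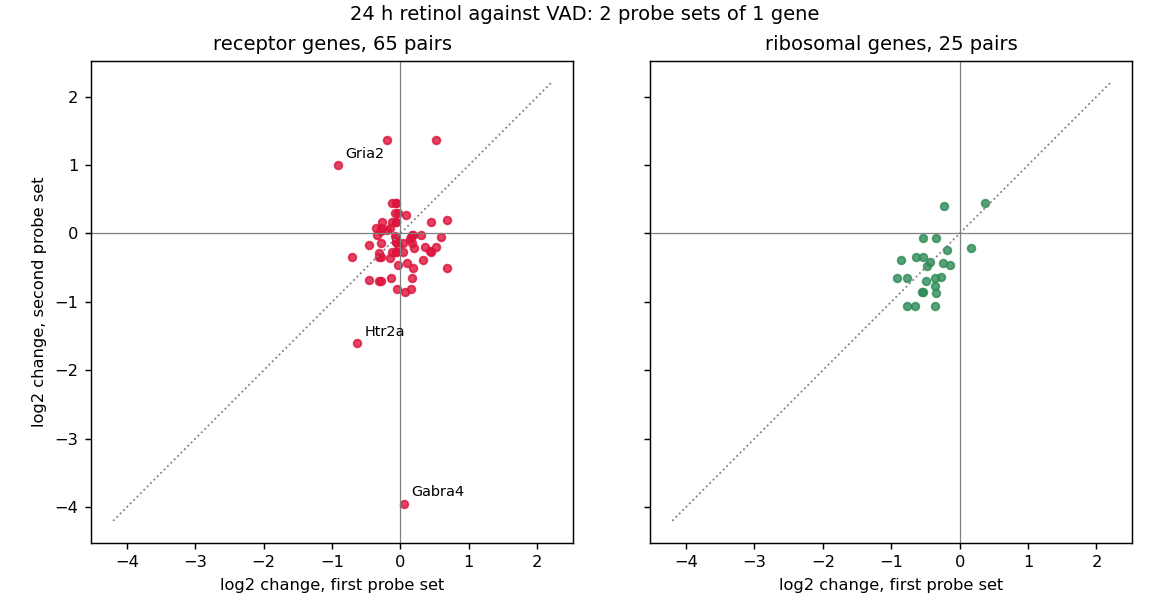
Log2 change at 24 h against VAD of 2 probe sets of the same gene, plotted against each other for 65 pairs of receptor genes (left) and 25 pairs of ribosomal protein genes (right); the dotted line marks equal readings. Receptor pairs scatter on both sides of 0 with Gabra4 and Gria2 far from the line, whereas 23 of 25 ribosomal pairs share a sign. The ribosomal exceptions are Rps2-ps1 and Rps6kb1.

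Genes that make, carry, degrade or anchor these transmitters and receptors were measured for 49 of the 61 listed. Their medians were 0.09, 0.05 and 0.01. None was past 2-fold at 4 h. At 8 h 3 were higher (6.12%) and 1 lower (2.04%), beside 2.83% and 1.88% of all genes. At 24 h 3 were higher (6.12%) and 0 lower, beside 3.27% and 2.64% of all genes. Tph1, the rate-limiting enzyme of serotonin synthesis, was at 0.60, 1.61 and 1.33, and the postsynaptic scaffold gene Homer3 at 0.91, 1.55 and 1.24. The fusion ATPase gene Nsf was at 1.14 and the ATP and ADP receptor gene P2ry1 at -1.35 at 8 h. Chat, the acetylcholine synthesis enzyme, was at -0.36, 0.70 and 1.001. Tph1, Homer3, P2ry1 and Chat are each read by 1 probe set and Nsf by 2. The GABA-B receptor genes Gabbr1 and Gabbr2 were at -0.05 and -0.16 at 24 h.

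Markers of nerve tissue did not move as a block. Of 14 neuronal markers 10 were measured, with medians of -0.12, 0.01 and -0.05, and 1 was 2-fold lower at each time (Nefm at 4 h and 8 h, Syt1 at 24 h). The 6 measured of 9 glial markers had medians of -0.04, 0.04 and 0.04 and none past 2-fold. Among testis markers, the 9 measured of 11 spermatocyte and spermatid genes were centred on 0.74, -0.37 and -0.57. The 4 measured of 6 spermatogonial genes were centred on 0.20, 0.13 and 0.50. The 6 Leydig genes of 8 had medians of 0.29, 0.12 and -0.44, and the 9 Sertoli genes of 10 had 0.07, -0.02 and -0.12. The part of these cell types in the receptor values was not tested, and ratios do not show whether a marker was present.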

How the data were processed

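Whole testis RNA was read on an Affymetrix rat array, 1 sample per group. What the authors deposited is a table of linear ratios, 4 columns by 8799 probe sets. GCOS and MAS5 are named in the submitters' processing notes, with no version; the denominator of the ratios, any pooling and the scaling are not stated there or in the labels. Probe sets with several symbols (308), those unlisted in the platform annotation (1426) and Affymetrix controls (59) stayed out of the gene comparisons, which leaves 7006. All 125 receptor probe sets kept their symbol when updated through Entrez IDs in RefSeq's GRCr8 table. Ratios were put on the log2 scale with no pseudocount, averaged per gene and subtracted between arrays (Python 3.11.15, pandas 2.3.3). With 1 array per group no test was possible and the number of arrays limits the precision, so genes were counted past 2-fold. The calculation was tested on simulated data.

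Named genes are those past 2-fold in any comparison, those with 2 or more probe sets that all moved by 0.5 (log2) or more one way at all 3 times, those with a pair differing by 2 or more, and the largest of each family. Further members that appear by name were picked with their values in view. The members and lists were chosen with earlier results of these data known. Scaling, comparison level, probe set choice, summary, threshold and symbols were varied.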

Additional observations from a re-analysis of the deposited data

How the results depend on the processing

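No paired analysis was possible because each group has 1 sample, and no sample could be left out for the same reason. Of 126 recomputed counts, medians, spread ratios and pair shares, 96 stayed near the reported value and 30 did not. Near meant within 1.5 times for counts and within a binomial 95% interval for medians and pair shares. For spread ratios it meant the outer limits of such intervals around the 2 quartiles, which is a wide range. These limits take genes, probe sets and pairs as separate draws, although all come from the same 4 arrays. Of 246 recomputed changes of named genes, 194 moved by less than the error estimated from pairs of receptor probe sets and 50 by more. The other 2, both of Gabra4, turned in sign from a change of at least 2-fold. Smaller changes that turned in sign, such as those of Grin1 with spike-in scaling, were counted among the 194 or the 50. Many of the 194 could not move. A dropped Gabra4 probe set leaves other genes as they were, and a median over 1 or 2 probe sets equals their mean. Genes without suffixed probe sets cannot change when those are left out. Among the 96, scaling cannot alter a spread ratio, and updating renamed no member. Neither tally therefore measures how robust the values are. The receptor medians became 0.026, 0.074 and 0.13 at 4, 8 and 24 h when arrays were centred on all genes, and 0.48, 0.46 and 0.64 with spike-in scaling. Spike-in scaling gave 10 genes past 2-fold at 8 h (9 higher, 1 lower) and 13 at 24 h (12 higher, 1 lower), and 83.1% of pairs with 1 sign at each time. Measured from 1, the count was 4 at 4 h and 5 at 8 h. Without probe sets that carry a suffix letter it was 1 at 8 h and 3 at 24 h, and 63.6% of the 11 remaining pairs agreed in sign at 4 h. Genes with a VAD ratio within 10% of 1 gave counts of 1, 0 and 2, and genes with 2 or more probe sets 0, 1 and 2. At 1.5-fold the counts were 8, 13 and 10, and at 3-fold 0, 0 and 1. After the data were seen, the lower Gabra4 probe set was left out, which gave 1 gene past 2-fold at 8 h and turned Gabra4 to 0.21 at 8 h and 0.055 at 24 h. Counting each gene once, also added later, put the 24 h pair share at 29.3%. Spread ratios ranged from 0.844 to 0.953 at 4 h, 0.635 to 0.882 at 8 h and 0.683 to 0.975 at 24 h, within wide intervals that reach above 1. Updated symbols and leaving out Grina kept every count past 2-fold. Apart from the effects of fewer genes, the cause of these shifts was not tested.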
